A study of Sus scrofa with 5 samples.

Results

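Heat shock proteins and their co-chaperones were examined in pig skin by single-cell RNA sequencing. The set comprised 34 of the 20286 genes in the deposited matrices. A gene was a member if its symbol began with DNAJA or DNAJB and a number, HSPA and a number, or HSPB and a number, or was HSPD1, HSPE1, HSPH1, HSP90AB1, CRYAB, BAG3 or HSF1. The endoplasmic reticulum genes HSPA5, DNAJB9 and DNAJB11 were left out. The set is wider than the cytosol: HSPD1, HSPE1, HSPA9 and DNAJA3 encode mitochondrial chaperones, and DNAJB12, DNAJB14 and HSPA13 encode proteins of the endoplasmic reticulum. DNAJA1, HSP90AA1, HSPA1A, HSPA2, HSPA4L, HSPB2 and HSPB7, which belong to the same families, had no row with a matching symbol and were not analysed here.

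Chaperones keep other proteins folded. J-domain proteins (DNAJA and DNAJB) bring unfolded clients to HSP70 proteins (HSPA) and start their ATP cycle, exchange factors such as HSPH1, HSPA4 and BAG3 release the client, HSP90 finishes many kinases and receptors, and small heat shock proteins (HSPB1, CRYAB, HSPB6, HSPB8) hold unfolded proteins without ATP. The transcription factor HSF1 raises the inducible members under heat, oxidation or mechanical and enzymatic stress, and digestion of tissue into single cells is known to raise the same genes, together with immediate early genes such as FOS and EGR1.

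Pigs received full-thickness wounds covered by split-thickness skin grafts. Of the 5 groups, each with 1 library, 2 came from grafts explanted on day 7, untreated or treated with a hydrogel holding an inhibitor of focal adhesion kinase (FAK), 2 came from untreated or inhibitor-treated grafts on day 90, and 1 came from unwounded skin of no stated day. FAK is a kinase that relays mechanical tension from the matrix into the cell. Dressings were changed every other day, tissue was digested with enzymes, and cells were loaded fresh. The series speaks of several pigs, but how many animals gave cells to each library, and whether libraries share animals, is not given in the labels, nor are the animals' age, sex and breed. With 1 library per group there is no replicate, so no p-value is given, a difference compares these libraries and not the conditions, and every interval is a 95% interval for counting error only.

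After filtering, 7549 cells remained of the untreated day 7 library, 8587 of the inhibitor day 7 library, 5383 of the untreated day 90 library, 3690 of the inhibitor day 90 library and 1540 of unwounded skin, with a median of 5472 to 9591 unique molecular identifiers (UMIs) per cell. Unwounded skin shared 133 cell barcodes with the untreated day 90 library and 152 with the inhibitor day 90 library, the day 90 libraries shared 70 with each other, and other pairs shared 3 to 32. The paired barcodes of unwounded skin and the day 90 libraries differed in UMI total by a median of 75.9-fold and 90.4-fold. Without every shared barcode, HSPB6 and DNAJB1 in endothelial-like cells each lost a call, as given beside those results, and DNAJB4 in fibroblast-like and HSPB1 in pericyte-like cells each gained a call for day 90 against unwounded skin. Levels are CPM (UMIs of a gene per 1000000 UMIs of the summed cells), by library and by cell class. A UMI tags 1 captured transcript end, so levels were not divided by gene length.

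Cells were grouped into 30 clusters without using the members or the immediate early genes, and a cluster was given a class name, such as fibroblast-like, from marker genes. The fibroblast-like class held 1381, 1401, 2097, 785 and 259 cells of the untreated day 7, inhibitor day 7, untreated day 90, inhibitor day 90 and unwounded libraries. The same order of libraries holds wherever 5 values are listed. The pericyte-like class, named from pericyte and smooth muscle markers, held 1710, 2457, 994, 1031 and 309 cells, and the endothelial-like class held 1600, 1229, 1284, 1349 and 649. All 12 fibroblast markers were measured in the fibroblast-like class of every library. Their sum, led by COL1A1, was 1.015e+05 and 8.131e+04 CPM on day 7, 2.069e+05 and 2.523e+05 on day 90 and 2.707e+05 in unwounded skin, so collagen and other fibroblast transcripts took a far larger share of the UMIs after day 7. Cluster 14, 985 endothelial-like cells with a median of 23993 UMIs, also scored for pericyte markers.

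Summed over all kept cells, the members made up 0.486% of UMIs in the untreated day 7 library, 0.540% with the inhibitor on day 7, 0.422% and 0.440% on day 90, and 0.493% in unwounded skin. HSPA8, the constitutive cytosolic HSP70, held 28.3% to 33.4% of the members' UMIs, and HSP90AB1, the constitutive cytosolic HSP90, held 17.4% to 20.1%. The 5 leading members together held 69.2% to 70.9%, so the summed level mostly follows constitutive chaperones. Of the 34 members, 16 reached 50 CPM in at least 1 library and 18 did not.

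HSPA8 stood at 1375, 1565, 1411, 1310 and 1427 CPM over all cells, a narrow range in which the inhibitor day 7 library was highest. HSP90AB1 stood at 907, 947, 735, 886 and 864 CPM, lowest in the untreated day 90 library. The small heat shock protein HSPB1, which binds actin and unfolded proteins, was at 465, 443, 347, 479 and 607 CPM, highest in unwounded skin. Among J-domain genes, DNAJB1, the inducible HSP70 partner, was at 157, 310, 199, 197 and 334 CPM, with the inhibitor day 7 and unwounded libraries above the other 3. DNAJB4, a close relative of DNAJB1, was at 179, 179, 100, 151 and 214 CPM, and DNAJB6, which keeps aggregation-prone proteins soluble, was at 207, 211, 114, 117 and 131 CPM. DNAJB6 was thus high in both day 7 libraries alone, while DNAJB4 was lowest in the untreated day 90 library. DNAJA2, a class A J-domain protein, was at 90.5, 108, 57.1, 61.9 and 77.3 CPM.

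The mitochondrial pair HSPE1 and HSPD1, which form the HSP10 and HSP60 rings of the matrix chaperonin, was highest on day 7. HSPE1 was at 445, 475, 254, 210 and 216 CPM and HSPD1 at 258, 289, 153, 149 and 174 CPM. Both day 7 libraries exceeded the other 3 for each gene, and the genes lie next to each other in the RefSeq gene table with 0 genes between them. HSPA9, the mitochondrial HSP70, lay within 60 to 75 CPM and did not share that split. HSPA4, an HSP110-type exchange factor, was at 89.0, 96.9, 54.3, 50.2 and 52.6 CPM, again higher in the day 7 libraries. HSPH1, the inducible HSP110, was at 122, 152, 111, 97.1 and 114 CPM, highest with the inhibitor on day 7. BAG3, which links HSP70 to small heat shock proteins and autophagy, was at 90.2, 75.3, 98.5, 136 and 162 CPM, lowest on day 7 and highest in unwounded skin.

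HSPB6, a small heat shock protein of muscle and vessel walls, was at 60.1, 51.9, 225, 156 and 93.9 CPM, highest on day 90. CRYAB, alpha-B crystallin, was at 99.3, 156, 52.8, 80.4 and 81.1 CPM, highest with the inhibitor on day 7. HSPA6, a strictly inducible HSP70, was at 27.7, 60.8, 46.9, 37.6 and 62.5 CPM, and like DNAJB1 was highest in the inhibitor day 7 and unwounded libraries. HSPA6 resembles other inducible HSP70 genes in sequence and the counting rule for such reads is not given, so its reads may include theirs. These sums over all cells mix classes whose shares differed between libraries, so the comparisons below are made within a class.

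**Figure D1:**
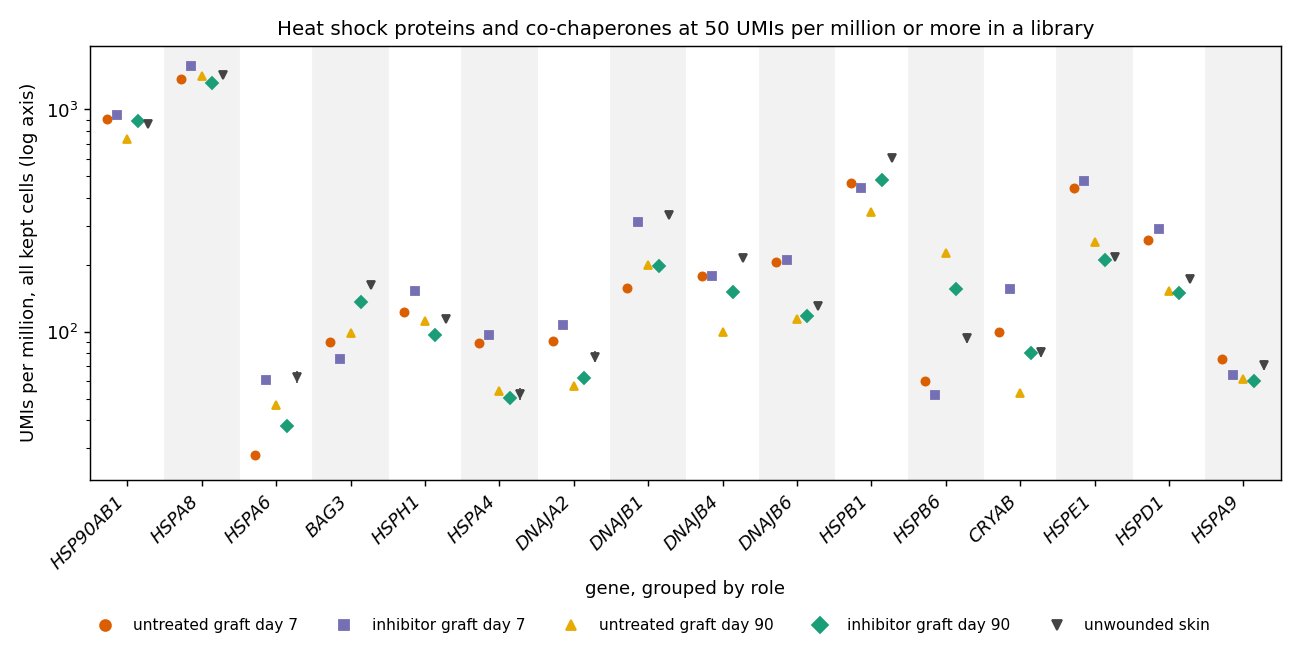
Levels of the members in the sum of all kept cells of each library, on a log axis of CPM, each point being 1 library and each bar its 95% interval for counting error, mostly hidden by the point. DNAJB1 and HSPA6 are highest in the inhibitor day 7 and unwounded libraries, HSPE1, HSPD1, HSPA4 and DNAJB6 in the day 7 libraries, and HSPB6 in the day 90 libraries.

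The classes differed in which members they held. By the mean over libraries HSPA8 was highest in mast-like cells, where it was 1718, 1727, 4531, 3355 and 4366 CPM. CRYAB was highest in Schwann-like cells, at 1401, 2656, 786, 1197 and 2005 CPM from only 43, 32, 27, 34 and 15 cells, then in pericyte-like cells at 308, 352, 199, 214 and 323 CPM, then in fibroblast-like cells at 92.7, 127, 52.4, 123 and 127 CPM. In every library the Schwann-like level of CRYAB was above the pericyte-like level, which was above the fibroblast-like level. HSPB6 was highest in fibroblast-like cells on day 90, and HSPB8, the partner of BAG3, had its highest mean in keratinocyte-like cells, at 26.9, 26.4, 39.0, 130 and 105 CPM. BAG3 was at 150, 139, 147, 145 and 180 CPM in endothelial-like cells, a range that did not share the low day 7 levels of the other stromal classes. HSPA12B, an HSP70 relative of endothelium, was at 35.3, 31.4, 52.3, 50.6 and 53.0 CPM in endothelial-like cells. By the same mean HSPB1 was highest in lymphatic endothelial-like cells and HSPE1 in keratinocyte-like cells.

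The first comparison asks how the inhibitor library differed from the untreated library on day 7. DNAJB1 and HSPA6 were higher with the inhibitor across the stromal classes, while constitutive members differed less. DNAJB1 in fibroblast-like cells was at 167 CPM untreated and 398 CPM with the inhibitor on day 7, against 166 and 157 CPM on day 90 and 234 CPM in unwounded skin. The inhibitor day 7 library stood above every other library. The ratio of inhibitor to untreated was 2.39 (2.29 to 2.49). In endothelial-like cells DNAJB1 was at 117, 311, 220, 189 and 345 CPM, with a day 7 ratio of 2.65 (2.50 to 2.81). In pericyte-like cells it was at 90.2, 223, 234, 212 and 246 CPM, with a day 7 ratio of 2.47 (2.31 to 2.64). In these classes it was the untreated day 7 library that stood low, and the inhibitor day 7 library lay near the day 90 or unwounded level.

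A member was called where it reached 50 CPM in either library of the class and differed by 1.5-fold or more, which is a criterion of size with no test behind it. In fibroblast-like cells 3 of the 16 members at 50 CPM were called, beside 7.36% of all genes that reached that level. DNAJB1 and HSPA6 were higher and HSPB6 lower with the inhibitor. In endothelial-like cells 2 of 14 were called, beside 7.05% of all genes, both higher and again DNAJB1 and HSPA6. In pericyte-like cells DNAJB1 was the 1 called member of 15, beside 8.03% of all genes. In keratinocyte-like cells HSPA6 was the 1 called of 15, beside 9.20%. Of 13 members at that level in T or NK-like cells 0 were called, beside 5.36%. The median log2 ratio of the members at 50 CPM was 0.154 in fibroblast-like cells, where the median of all genes was 0.0564. It was 0.202 against -0.00454 in endothelial-like cells, 0.0896 against -0.0247 in pericyte-like cells, 0.0501 against -0.00867 in keratinocyte-like cells and 0.201 against 0.0264 in T or NK-like cells.

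HSPA6 in fibroblast-like cells was at 35.4 and 87.2 CPM on day 7, 37.3 and 39.3 CPM on day 90 and 42.6 CPM in unwounded skin. As for DNAJB1, the inhibitor day 7 library stood alone, with a ratio of 2.46 (2.25 to 2.70). In endothelial-like cells HSPA6 was at 19.1, 62.1, 43.3, 40.7 and 80.3 CPM, a day 7 ratio of 3.26 (2.83 to 3.76), and in keratinocyte-like cells at 27.6 and 80.4 CPM on day 7, a ratio of 2.91 (2.45 to 3.46). In pericyte-like cells it stayed below the 50 CPM needed for a call, at 6.04 and 27.9 CPM. HSPA6 UMIs were concentrated in few cells. Without the 5% of cells with the highest HSPA6 share, the day 7 levels became 10.5 and 32.6 CPM in fibroblast-like cells, 5.32 and 19.2 CPM in endothelial-like cells and 14.2 and 22.6 CPM in keratinocyte-like cells. DNAJB1 was more evenly spread. Without its top 5% of cells it was at 124 and 316 CPM in fibroblast-like cells, 96.6 and 236 CPM in endothelial-like cells and 71.4 and 134 CPM in pericyte-like cells.

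The same direction was seen in most, not all, other classes and clusters. Of the 9 classes with 50 or more cells in both day 7 libraries, DNAJB1 was above 1 as a ratio in 7 and past 1.5-fold higher in 4, and it was past 1.5-fold lower in B or plasma-like cells, at 122 and 68.3 CPM from 53 and 68 cells. Myeloid-like cells were among the 4, at 84.6 and 198 CPM, a ratio of 2.34 (2.09 to 2.61). That value rests on few cells, since without the top 5% of cells the levels were 45.4 and 67.5 CPM, a ratio short of 1.5-fold. T or NK-like cells had 210 and 282 CPM and keratinocyte-like cells 286 and 414 CPM, both short of 1.5-fold. Among 23 clusters compared on day 7, 21 had DNAJB1 higher with the inhibitor, 17 of them past 1.5-fold, with a median ratio of 2.34. For HSPA6, 18 of 23 clusters were higher, 17 past 1.5-fold, with a median ratio of 3.07. Over the 9 classes HSPA6 was above 1 as a ratio in 7, past 1.5-fold higher in 5 and lower in 1. That class was the lymphatic endothelial-like cells, a single cluster, at 121 CPM in 85 untreated cells and 28.5 CPM in 53 inhibitor cells, 4.25-fold lower with the inhibitor (2.38 to 8.15). Fibroblast-like cluster 4 was also not higher for HSPA6, at 47.2 CPM untreated and 39.6 CPM with the inhibitor, although DNAJB1 in the same cluster was at 195 and 347 CPM. In fibroblast-like cluster 15 DNAJB1 was at 304 CPM in 214 untreated cells and 1153 CPM in 118 inhibitor cells. Over the 23 clusters its ratio ran from 0.561 to 4.29. All these cells come from the same pair of libraries, so classes and clusters are not replicates of the difference.

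HSPA8 and HSPH1 were also higher with the inhibitor on day 7, by less. HSPA8 in fibroblast-like cells was at 1243 and 1645 CPM, and its ratio over the 9 classes ran from 0.888 to 1.32, with 7 above 1 and 0 past 1.5-fold. HSPH1 was at 118 and 165 CPM in fibroblast-like cells, 133 and 177 in endothelial-like cells and 124 and 150 in pericyte-like cells. Over the 23 clusters its median ratio was 1.33, with 7 past 1.5-fold. In Schwann-like cells, 43 untreated and 32 with the inhibitor, DNAJB1 was at 218 and 658 CPM, HSPH1 at 146 and 432 CPM and CRYAB at 1401 and 2656 CPM, each higher with the inhibitor. DNAJB4, DNAJB12 and HSPA6 were also called higher there. HSPB6 was called lower, at 52.0 and 32.2 CPM, with a fold interval that includes 1 (0.565 to 5.63). The share of all genes called was not computed for this small class. In fibroblast-like cells HSPB6 was lower as well, at 115 and 75.6 CPM, 1.52-fold lower with the inhibitor (1.42 to 1.62). Where the clusters present in both libraries were weighted the same, its log2 ratio was -0.24 and the call was lost. The members that are constitutive or mitochondrial, among them HSP90AB1 at 631 and 674 CPM, HSPE1 at 455 and 489 CPM and HSPD1 at 211 and 243 CPM in fibroblast-like cells, were not called.

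**Figure D2:**
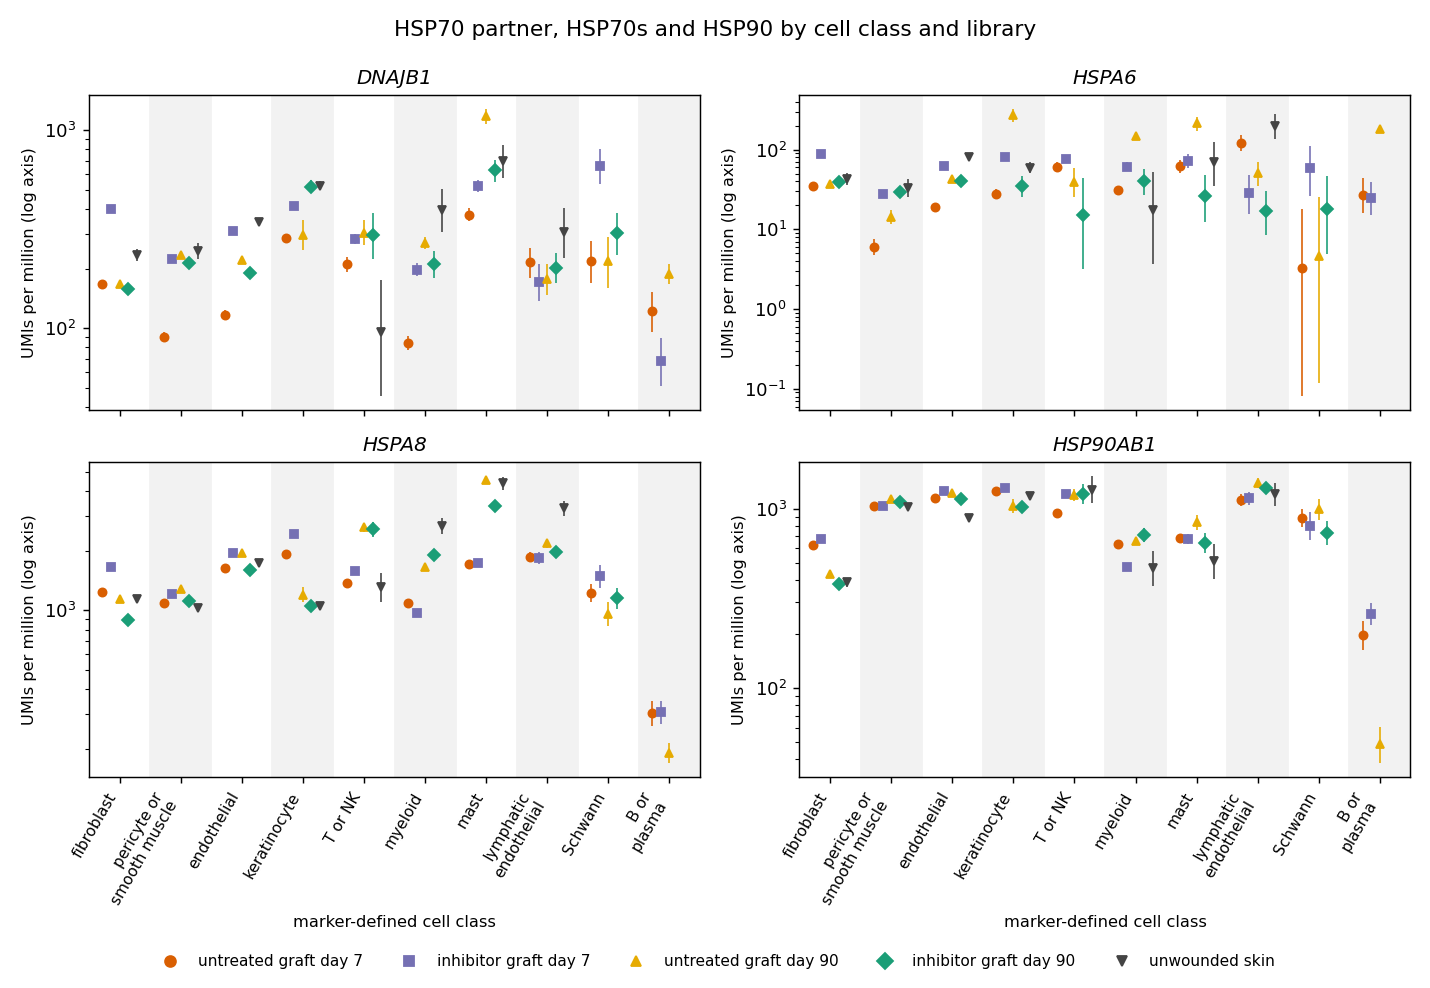
DNAJB1, HSPA6, HSPA8 and HSP90AB1 by cell class and library, on a log axis of CPM, each point being the summed cells of a class with 20 or more cells in that library and each bar its 95% interval for counting error. On day 7 the inhibitor library lies above the untreated library for DNAJB1 in fibroblast-like, endothelial-like, pericyte-like and myeloid-like cells, while HSPA8 and HSP90AB1 lie close together.

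The digestion-linked immediate early genes, 14 of 18 measured, summed to 3845 CPM in fibroblast-like cells of the untreated day 7 library and 4917 CPM with the inhibitor. The sum was 5085 and 4623 CPM in pericyte-like cells and 4929 and 5170 CPM in endothelial-like cells. In pericyte-like cells the immediate early sum was therefore lower in the library where DNAJB1 was higher. Within that list, 0 genes were higher and 5 of 13 lower past 1.5-fold in pericyte-like cells, beside 8.03% of all genes called. In endothelial-like cells 0 were higher and 1 of 12 lower, beside 7.05%. In fibroblast-like cells 3 of 12 were higher and 1 lower, beside 7.36%. Mitochondrially encoded transcripts were lower with the inhibitor on day 7 in all 3 stromal classes, at 37125 and 26072 CPM in fibroblast-like cells, 44281 and 29210 CPM in pericyte-like cells and 43751 and 32919 CPM in endothelial-like cells. Time from explant to lysis is not given in the labels. The part of digestion, handling and the animals in the DNAJB1 and HSPA6 difference was not tested.

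Other chaperone genes that are no members were little different between the day 7 libraries. Of the HSP90 and HSP70 co-chaperones, such as PTGES3 and CDC37, 0 of 7 genes at 50 CPM passed 1.5-fold in fibroblast-like cells, 0 of 9 in endothelial-like cells and 0 of 9 in pericyte-like cells. The same count of 0 held in the 3 classes for class C J-domain genes (of 11, 9 and 8), for the cytosolic chaperonin TRiC with prefoldin (of 11, 10 and 11) and for endoplasmic reticulum chaperones (of 11, 9 and 10). Of other known HSF1 target and stress genes, 0 of 7 passed in fibroblast-like and endothelial-like cells and 1 of 7, lower, in pericyte-like cells. HSF1 itself was at 33.9 to 38.8 CPM in the 5 libraries over all cells. Of all genes at 50 CPM, 7.36% were called in fibroblast-like, 7.05% in endothelial-like and 8.03% in pericyte-like cells. A count of 0 in lists this short is near those shares and sets no contrast with the called members. The members called in these 3 classes were DNAJB1, HSPA6 and HSPB6, and the counts are read as descriptions of these libraries.

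On day 90 DNAJB1 was not higher with the inhibitor in the stromal classes. DNAJB1 with and without the inhibitor was at 157 and 166 CPM in fibroblast-like cells, 189 and 220 CPM in endothelial-like cells and 212 and 234 CPM in pericyte-like cells. Among 12 clusters compared on day 90, it was above 1 as a ratio in 2, past 1.5-fold higher in 0 and past 1.5-fold lower in 3, with a median of 0.858. HSPA6 with and without the inhibitor was at 39.3 and 37.3 CPM in fibroblast-like cells and 40.7 and 43.3 CPM in endothelial-like cells. In pericyte-like cells it was at 29.0 and 14.4 CPM, 2.01-fold higher with the inhibitor (1.57 to 2.59) but below the 50 CPM needed for a call. Over the 12 clusters HSPA6 was past 1.5-fold higher in 2 and lower in 5. Of the members at 50 CPM, 1 of 12 was called in fibroblast-like cells, beside 12.5% of all genes, 0 of 15 in endothelial-like cells, beside 1.58%, and 1 of 16 in pericyte-like cells, beside 5.57%. The members' median log2 ratio was -0.186, -0.191 and -0.107 in the 3 classes, where that of all genes was -0.137, -0.0482 and -0.0384. Whether the inhibitor difference itself changed between day 7 and day 90 was not tested, since each is a difference of 2 libraries.

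In the stromal classes the day 90 calls were CRYAB in fibroblast-like cells and HSPB8 in pericyte-like cells. CRYAB was at 52.4 CPM untreated and 123 CPM with the inhibitor, a ratio of 2.34 (2.19 to 2.49), and 127 CPM in unwounded skin, so the untreated day 90 library stood low. The clusters that made up the class differed. Cluster 16, where CRYAB was at 158 to 165 CPM in the day 90 and unwounded libraries, held 13.2% of the untreated day 90 fibroblast-like cells, 47.4% of the inhibitor cells and 47.1% of the unwounded cells, while cluster 11, at 45.5 and 43.9 CPM, held 47.5% and 18.2% on day 90. With shared clusters weighted the same the log2 ratio of CRYAB was 0.51 and the call was lost. Cluster 15 still had 58.8 CPM untreated and 142 CPM with the inhibitor. HSPB8 in pericyte-like cells was at 36.6 and 62.4 CPM, a ratio of 1.70 (1.45 to 2), and its log2 ratio with shared clusters weighted the same was 0.42, also short of 1.5-fold. Small classes had calls as well. In Schwann-like cells, 27 untreated and 34 with the inhibitor, BAG3, CRYAB, DNAJA2, DNAJB6, HSPA9, HSPA12A, HSPB1 and HSPH1 were called higher. The ratio of HSPA9 was 1.51 (0.809 to 2.91), an interval that includes 1. The intervals of BAG3, DNAJA2, DNAJB6 and HSPB1 began close to 1, at 1.04, 1.05, 1.08 and 1.015. HSPH1 there was at 116 and 284 CPM. In glandular epithelial-like cells, 22 untreated and 24 with the inhibitor, BAG3 and DNAJB1 were called higher and HSPA13 and HSPB6 lower. HSPA13 there was 1.54-fold lower (0.819 to 2.90), an interval that includes 1. The share of all genes called was not computed for these small classes.

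The untreated day 7 library was next set against unwounded skin. The parts of wounding, grafting, dressing, animals and digestion in the differences between these libraries were not tested. This comparison and that of day 90 share the unwounded library, and the comparisons above share the untreated libraries with them, so their values are given side by side and are not independent. On day 7 the mitochondrial chaperonin genes and HSPA4 and DNAJB6 were higher than in unwounded skin and BAG3, HSPB6, DNAJB1 and HSPA6 lower in 1 or more classes. In fibroblast-like cells 7 of 15 members were called, beside 53.8% of all genes, with 5 higher and 2 lower. In endothelial-like cells 7 of 16 were called, beside 38.0% of all genes, and in pericyte-like cells 7 of 16, beside 40.6%, each with 3 higher and 4 lower. These shares are near the background of all genes. The members' median log2 ratio was 0.122, -0.0307 and -0.0556 in the 3 classes, where that of all genes was 0.311, 0.118 and -0.00437. Median-of-ratios scaling put the shift common to all genes at 0.279 in fibroblast-like and 0.118 in endothelial-like cells on the log2 scale.

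HSPE1 was at 455, 489, 253, 181 and 128 CPM in fibroblast-like cells, a descending order from the day 7 libraries through day 90 to unwounded skin. The untreated day 7 level was 3.55-fold that of unwounded skin (3.22 to 3.93). In endothelial-like cells HSPE1 was at 351, 396, 252, 204 and 177 CPM, a day 7 to unwounded ratio of 1.98 (1.87 to 2.10), and in pericyte-like cells at 462, 468, 314, 266 and 262 CPM, a ratio of 1.76 (1.61 to 1.93). The same order of libraries was seen in all 3 classes. In all 5 classes with 50 cells in both libraries HSPE1 was past 1.5-fold higher on day 7, untreated at 1.77 to 3.56-fold and with the inhibitor at 1.79 to 4.11-fold. Its partner HSPD1 was at 211, 243, 113, 88.7 and 96.4 CPM in fibroblast-like cells, 2.19-fold higher on day 7 untreated than in unwounded skin (1.95 to 2.47), but its log2 ratio was 0.50 with shared clusters weighted the same. In endothelial-like cells HSPD1 was at 244, 279, 191, 159 and 170 CPM, and in pericyte-like cells at 323, 343, 278, 235 and 248 CPM, both under 1.5-fold.

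HSPA4 was 1.85-fold higher on day 7 untreated than in unwounded skin in fibroblast-like cells (1.53 to 2.25), at 68.6 against 37.1 CPM. The ratio was 1.80 (1.62 to 2) in endothelial-like cells, at 101 against 56.4 CPM, and 1.65 (1.37 to 2) in pericyte-like cells, at 100 against 60.9 CPM. The inhibitor day 7 library, at 73.3, 102 and 111 CPM in these classes, was as high. DNAJB6 was at 116, 116, 86.5, 72.7 and 72.3 CPM in fibroblast-like cells, 242, 237, 146, 125 and 131 CPM in endothelial-like cells and 273, 260, 188, 173 and 168 CPM in pericyte-like cells. Both day 7 libraries exceeded the 3 others in each class. Its day 7 to unwounded ratio was 1.60 (1.39 to 1.84), 1.85 (1.73 to 1.98) and 1.63 (1.46 to 1.83). In fibroblast-like cells the call was lost under 4 settings, with a lowest log2 ratio of 0.34. HSP90AB1 was called in fibroblast-like cells, at 631, 674, 430, 378 and 389 CPM, a ratio of 1.63 (1.53 to 1.72). With shared clusters weighted the same its log2 ratio was 0.26, and it was short of 1.5-fold under median-of-ratios scaling as well, at 0.42.

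**Figure D3:**
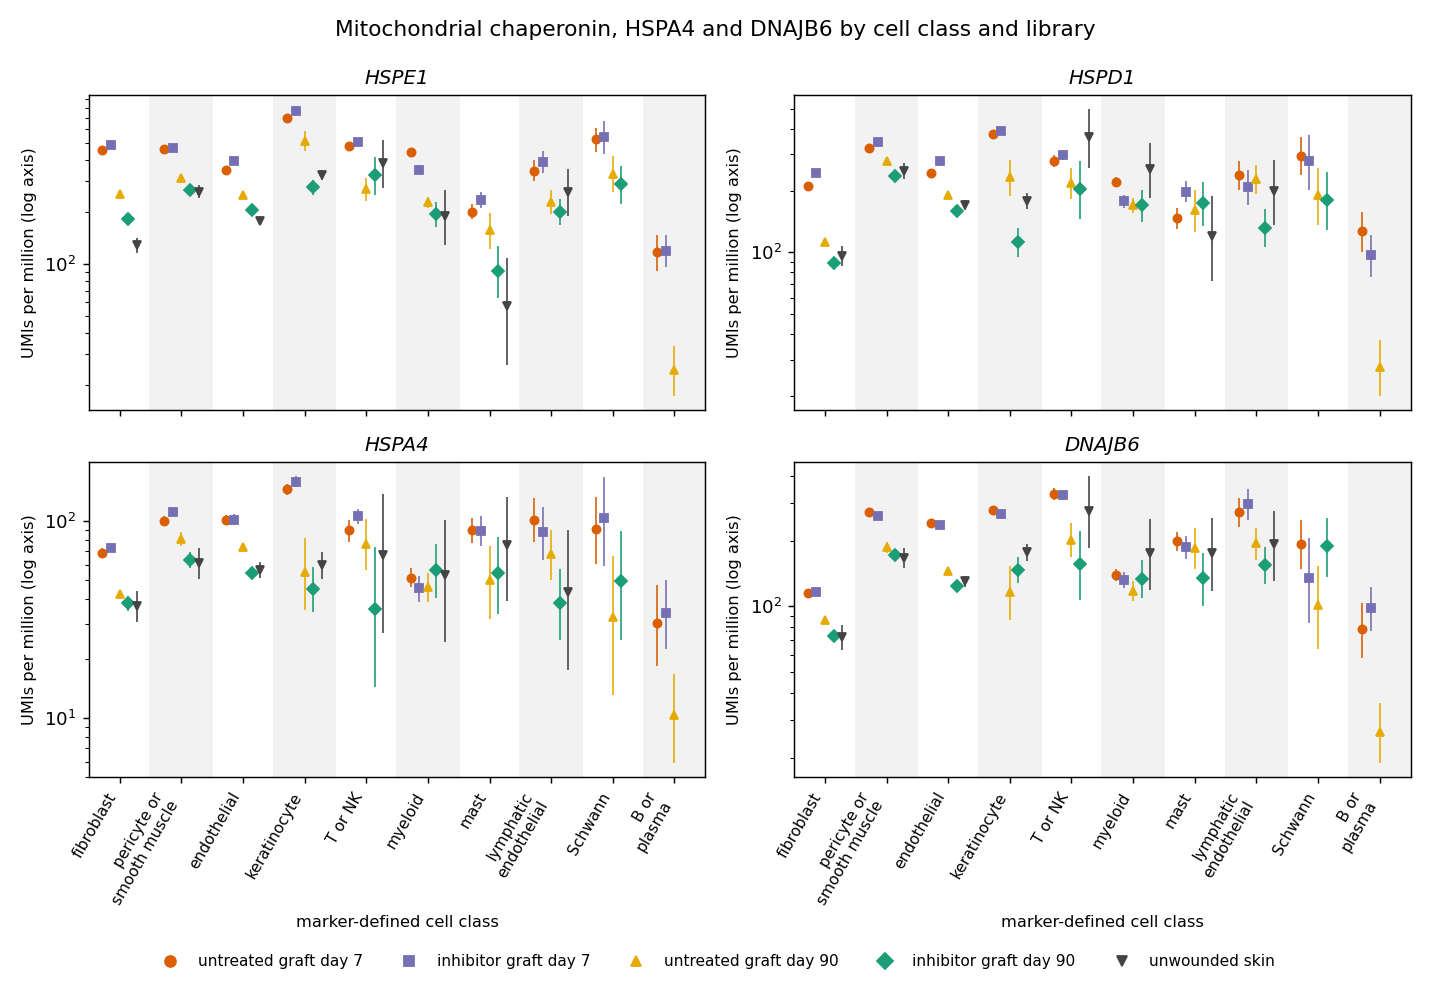
HSPE1, HSPD1, HSPA4 and DNAJB6 by cell class and library, on a log axis of CPM, each point being the summed cells of a class with 20 or more cells in that library and each bar its 95% interval for counting error. In fibroblast-like, endothelial-like and pericyte-like cells the day 7 libraries lie highest for HSPE1, HSPA4 and DNAJB6.

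Counts for other folding genes are read against the share of all genes called, which was 53.8% in fibroblast-like, 38.0% in endothelial-like and 40.6% in pericyte-like cells. TRiC and prefoldin genes, which fold actin and tubulin in the cytosol, were past 1.5-fold higher than in unwounded skin for 8 of 10 genes at 50 CPM in fibroblast-like cells, 5 of 10 in endothelial-like and 4 of 10 in pericyte-like cells, with 0 lower. In fibroblast-like cells the largest were PFDN2 at 157 against 67.3 CPM, CCT3 at 115 against 51.9 CPM and TCP1 at 101 against 55.9 CPM. Endoplasmic reticulum chaperones were higher for 11 of 11, 2 of 9 and 5 of 10 genes in the same 3 classes. Of the co-chaperones, 4 of 7 were higher in fibroblast-like cells and 3 of 9 in endothelial-like cells, and in pericyte-like cells CHORDC1 was higher and UNC45A lower of 10. HSBP1, which binds HSF1 and restrains it, was 2.83-fold higher in fibroblast-like cells, at 298 against 105 CPM. It was also higher in endothelial-like cells, at 340 against 130 CPM, and in pericyte-like cells, at 342 against 173 CPM. Of other HSF1 target and stress genes, 1 of 7 was higher and 2 lower in fibroblast-like cells, and 1 was higher and 4 lower in both other classes, with SERPINH1 at 1188 against 724 CPM and PPP1R15A at 168 against 528 CPM in fibroblast-like cells. The TRiC and endoplasmic reticulum lists in fibroblast-like cells were above that share. The other HSF1 target and stress genes were above it in endothelial-like and pericyte-like cells, where most of those called were lower. TRiC and prefoldin in endothelial-like cells and endoplasmic reticulum chaperones in pericyte-like cells, each with 5 of 10, were above it as well. The other list counts given here were near or below it.

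DNAJB1 and, in endothelial-like cells, HSPA6 were lower on day 7 untreated than in unwounded skin. DNAJB1 was 2.94-fold lower in endothelial-like cells (2.77 to 3.12) and 2.73-fold lower in pericyte-like cells (2.45 to 3.03), from the levels given above. In fibroblast-like cells, at 167 against 234 CPM, it was not called. With the inhibitor on day 7 DNAJB1 was higher than in unwounded skin past 1.5-fold in 1 of 5 classes and lower in 0. HSPA6 was 4.21-fold lower in endothelial-like cells (3.66 to 4.85). With shared clusters weighted the same its log2 ratio was -0.73, where it was -2.07 with all cells summed. In fibroblast-like cells HSPA6 was at 35.4 against 42.6 CPM and in pericyte-like cells at 6.04 against 33.2 CPM, under 50 CPM in both libraries. HSPH1, also inducible, was short of 1.5-fold in the stromal classes. It was at 118 against 132 CPM in fibroblast-like, 133 against 133 CPM in endothelial-like and 124 against 108 CPM in pericyte-like cells. In keratinocyte-like cells HSPH1 was at 130 against 52.5 CPM. Over the 5 classes with 50 cells in both libraries its ratio ran from 0.645 to 2.47, past 1.5-fold higher in 1 and lower in 1. Immediate early genes had the direction of DNAJB1 and a wider span. Their sum in endothelial-like cells was 4929, 5170, 12154, 12046 and 15430 CPM. Of 12 at 50 CPM, 10 were lower on day 7 untreated than in unwounded skin and 1 higher, beside 38.0% of all genes called. Unwounded skin, where DNAJB1 was high, thus also had the highest immediate early level, and the part of digestion in these differences was not tested.

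BAG3 was 2.39-fold lower on day 7 untreated than in unwounded skin in fibroblast-like cells (2.15 to 2.67), at 62.4, 56.1, 79.6, 109 and 150 CPM. In pericyte-like cells it was at 115, 80.3, 126, 179 and 226 CPM, 1.96-fold lower (1.76 to 2.18). Both classes had the lowest level with the inhibitor on day 7 and the highest in unwounded skin. HSPB8, which forms a complex with BAG3, was at 41.0, 25, 36.6, 62.4 and 99.1 CPM in pericyte-like cells, 2.42-fold lower on day 7 than in unwounded skin (2.04 to 2.86). Its UMIs came mainly from pericyte-like cluster 3, at 164, 150, 110, 158 and 200 CPM, with no more than 12.1 CPM in clusters 0 and 1. Cluster 3 held 20.5%, 10.7%, 35.9%, 42.4% and 49.8% of the class. With shared clusters weighted the same the log2 ratio of HSPB8 was -0.24 and the call was lost. The level over the class was lowest and highest in the libraries where cluster 3 held the lowest and highest share. The order did not hold between them. The untreated day 90 library had 35.9% of cluster 3 and 36.6 CPM, the untreated day 7 library 20.5% and 41.0 CPM.

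HSPB6 was lower on day 7 untreated than in unwounded skin in all 3 classes. In fibroblast-like cells it was at 115, 75.6, 360, 316 and 190 CPM, 1.66-fold lower on day 7 (1.51 to 1.81). That direction reversed with shared clusters weighted the same, to a log2 ratio of 0.19 from -0.73. In cluster 15, which held fibroblast-like cells of every library, HSPB6 was at 247, 249, 304, 276 and 215 CPM, whereas clusters 4 and 7, frequent on day 7, had 97.1 and 91.3 CPM untreated. In pericyte-like cells HSPB6 was at 97.4, 85.7, 156, 191 and 212 CPM, 2.18-fold lower on day 7 (1.95 to 2.44). In endothelial-like cells it was at 37.0, 19.1, 50.8, 65.0 and 63.9 CPM, 1.73-fold lower (1.53 to 1.95). Without barcodes found in more than 1 library its endothelial-like log2 ratio was -0.35, and the call was lost. Pericyte markers in the endothelial-like class summed to 3538, 1854, 3108, 2764 and 2337 CPM and fibroblast markers to 2726, 1345, 3238, 1750 and 1353 CPM, and the part of RNA from those cells in the HSPB6 level was not tested. HSPA12B in endothelial-like cells, at 35.3 against 53.0 CPM, was 1.5-fold lower (1.32 to 1.71), on the edge of the criterion, and was past it under 9 of 14 settings.

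**Figure D4:**
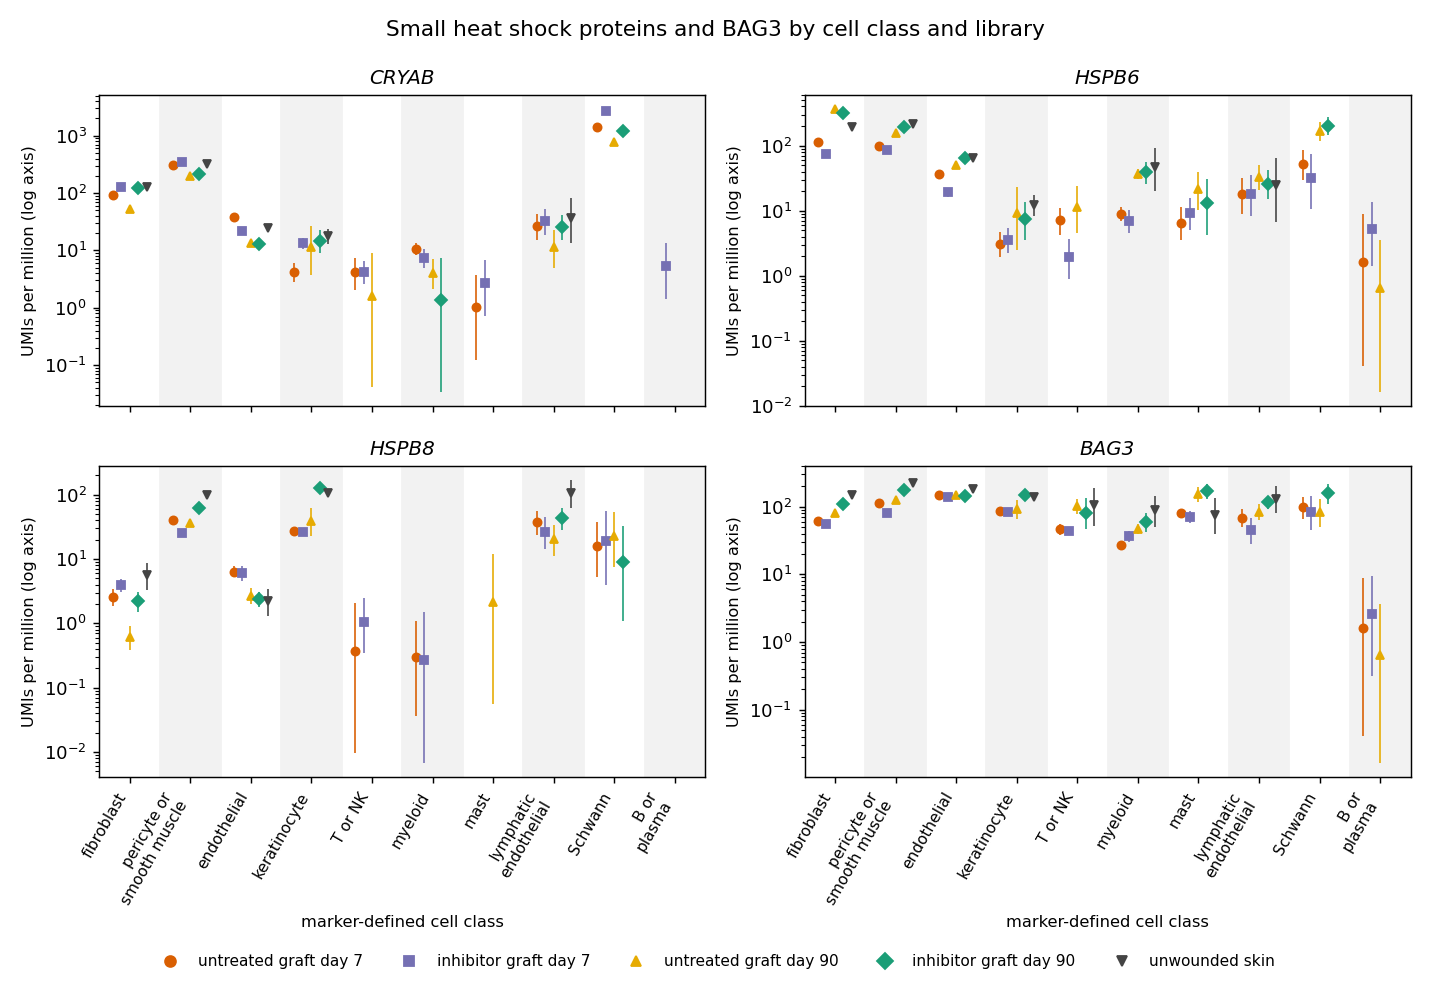
CRYAB, HSPB6, HSPB8 and BAG3 by cell class and library, on a log axis of CPM, each point being the summed cells of a class with 20 or more cells in that library and each bar its 95% interval for counting error. CRYAB lies highest in Schwann-like and then pericyte-like cells, HSPB6 is highest in fibroblast-like cells on day 90, and BAG3 is lowest on day 7 in fibroblast-like and pericyte-like cells.

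The untreated day 90 library was also set against unwounded skin, where fewer members and fewer of all genes were called than on day 7. In fibroblast-like cells 5 of 12 were called, beside 44.2% of all genes, with HSPB6 and HSPE1 higher and BAG3, CRYAB and HSPB1 lower. In endothelial-like cells 3 of 16 were called, beside 14.6%, with DNAJB1, DNAJB4 and HSPA6 lower. In pericyte-like cells 3 of 16 were called, beside 22.0%, with BAG3, CRYAB and HSPB8 lower. These shares are again near those of all genes. The members' median log2 ratio was -0.12, 0.0298 and 0.00384, where that of all genes was 0.16, 0.0714 and 0.0354, and the scaling shift of all genes in fibroblast-like cells was 0.175. HSPE1 in fibroblast-like cells remained above unwounded skin by 1.98-fold (1.79 to 2.19), and HSPB6 was above it by 1.89-fold (1.75 to 2.06). The HSPB6 direction on day 90 was thus opposite to that on day 7 in the summed class.

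BAG3 was 1.88-fold lower on day 90 untreated than in unwounded skin in fibroblast-like cells (1.70 to 2.07) and 1.79-fold lower in pericyte-like cells (1.59 to 2.01). CRYAB was 2.42-fold lower in fibroblast-like cells (2.17 to 2.69) and 1.62-fold lower in pericyte-like cells (1.47 to 1.78). HSPB1 was 1.56-fold lower in fibroblast-like cells (1.46 to 1.67), at 182 against 284 CPM. With shared clusters weighted the same, the fibroblast-like log2 ratios of BAG3, CRYAB and HSPB1 became -0.39, -0.05 and -0.45 and each call was lost. The pericyte-like CRYAB call was lost under 4 settings. HSPB8 was 2.70-fold lower in pericyte-like cells (2.23 to 3.27), with a log2 ratio of -0.78 under equal cluster weights and -1.44 otherwise.

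In endothelial-like cells on day 90 untreated, DNAJB4 was 1.74-fold lower than in unwounded skin (1.65 to 1.84), at 153 against 266 CPM. HSPA6 was 1.86-fold lower (1.67 to 2.06), at 43.3 against 80.3 CPM. DNAJB1 was 1.57-fold lower (1.5 to 1.65), at 220 against 345 CPM. The DNAJB1 call was lost without barcodes found in more than 1 library, at a log2 ratio of -0.57, under equal cluster weights, also -0.57, and as a mean of per-cell values, at -0.45.

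**Figure D5:**
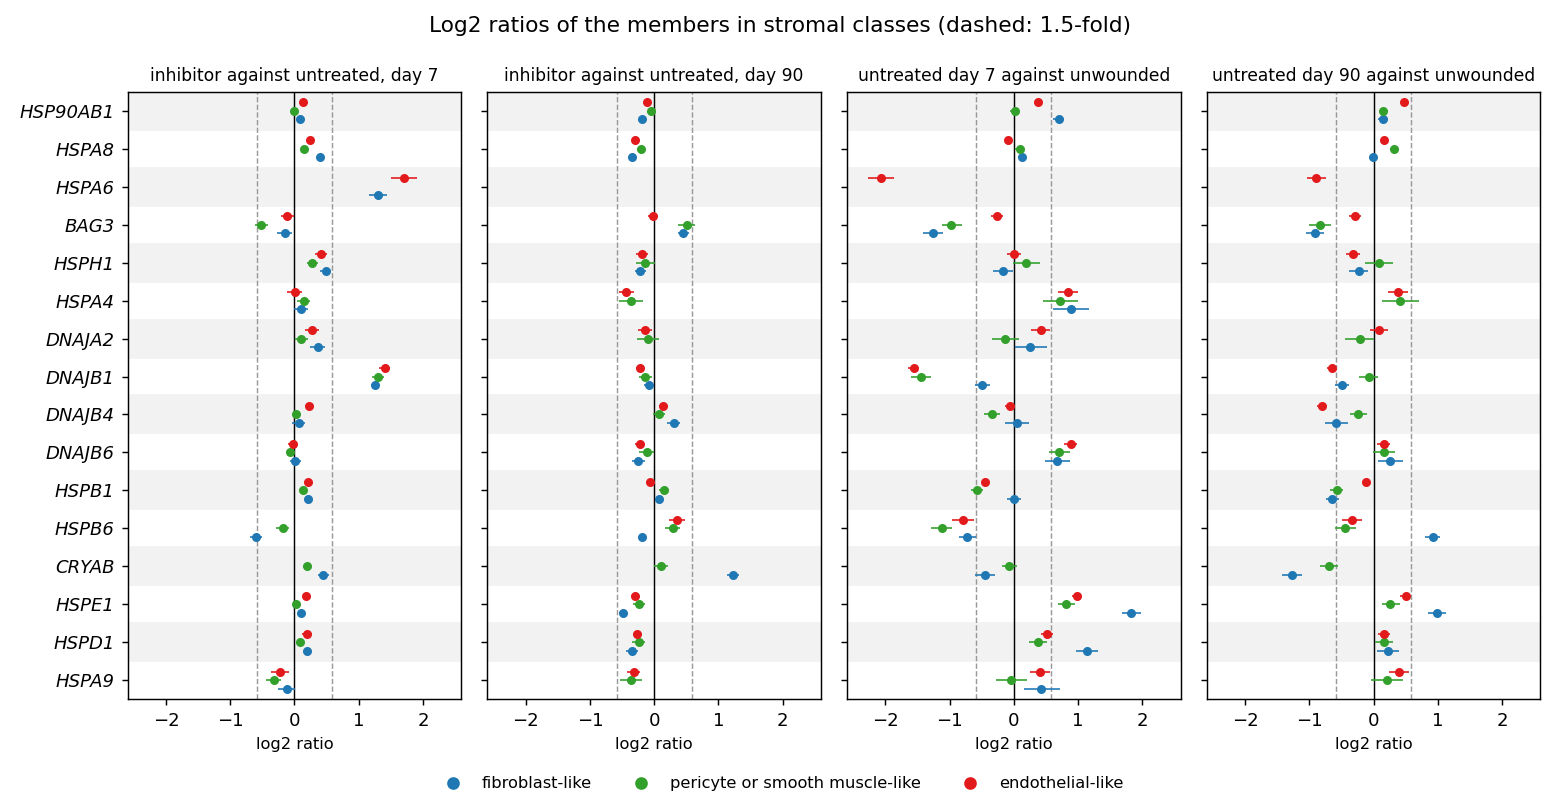
Ratio of the first to the second library on a log2 scale for the 16 members that reached 50 CPM, in fibroblast-like, pericyte-like and endothelial-like cells, for 4 comparisons, with dashed lines at 1.5-fold and members under 50 CPM in both libraries not drawn, and bars giving the 95% interval for counting error. DNAJB1 and HSPA6 stand to the right on day 7 with the inhibitor, and HSPE1, HSPA4 and DNAJB6 on day 7 against unwounded skin.

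HSPA8 was higher on day 90 than on day 7 in mast-like, T or NK-like and myeloid-like cells, but not in B or plasma-like cells. In mast-like cells, 415, 349, 229, 177 and 59 by library, HSPA8 was 2.54-fold lower on day 7 untreated than in unwounded skin (2.34 to 2.76), and both day 7 libraries lay below the other 3. Their members' summed level was 4540, 4913, 8744, 6573 and 7559 CPM. DNAJB1 in mast-like cells was at 374, 524, 1170, 625 and 694 CPM, highest in the untreated day 90 library. The immediate early sum in the same cells was 7132, 7321, 20071, 23036 and 27333 CPM, which also split day 7 from the rest. Depth split the same way, with a median of 4301, 3718, 1632, 1832 and 2389 UMIs per mast-like cell. The part of depth in these differences was not tested. T or NK-like cells had HSPA8 at 1379, 1585, 2616 and 2565 CPM in the 4 graft libraries, again higher on day 90, and only 23 such cells came from unwounded skin. In myeloid-like cells HSPA8 was at 1089, 967, 1659, 1908 and 2664 CPM, the last from 24 cells. B or plasma-like cells had the lowest summed level, at 1346, 1420 and 874 CPM in the untreated day 7, inhibitor day 7 and untreated day 90 libraries, from 53, 68 and 59 cells. Their HSPA8 was at 302, 306 and 191 CPM, lower on day 90. In keratinocyte-like cells HSPA8 and HSPE1 were also lower on day 90. HSPA8 was at 1914, 2425, 1197, 1049 and 1045 CPM and HSPE1 at 699, 761, 516, 277 and 325 CPM, both highest on day 7. Other members went the other way in the inhibitor day 90 library. DNAJB1 was at 286 and 414 CPM on day 7 and 516 CPM there, and BAG3 at 86.9 and 82.7 CPM on day 7 and 149 CPM there. Only 32 keratinocyte-like cells came from the untreated day 90 library.

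Across the 36 pairs of a class and a library with 50 or more cells, members were compared by Spearman's rank correlation as a description, since points of the same library share its animals, digestion and depth. HSPD1 and HSPE1 had a rho of 0.81 and HSPA4 and HSPE1 one of 0.601. DNAJB1 had 0.444 with HSPA6, 0.484 with HSPH1 and 0.443 with HSPA8, and BAG3 had 0.416 with HSPB8. Set against the immediate early sum, rho was 0.689 for BAG3, 0.348 for DNAJB1, 0.0368 for HSPA6 and -0.818 for HSPE1. BAG3 thus ranked the points much as the immediate early genes did, and HSPE1 ranked them nearly the other way. HSPE1 had 0.664 with the TRiC and prefoldin sum.

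The remaining 18 members were below 50 CPM in the sum of every library. DNAJA3, DNAJA4, DNAJB2, DNAJB5, DNAJB8, DNAJB13, HSPA1L, HSPB3, HSPB9 and HSPB11 stayed below it in every class as well, none above 22.7 CPM in a library, and each had at least 1 UMI. The other 8 reached 50 CPM in some class. In the library sums DNAJB12 ranged from 18.5 to 27.0 CPM and DNAJB14 from 24.8 to 34.4 CPM, both J-domain proteins of the endoplasmic reticulum membrane. HSPA13 ranged from 16.7 to 37.5 CPM, HSPA14, a ribosome-linked HSP70, from 20.2 to 28.9 CPM, HSPA12A from 2.17 to 3.94 CPM, HSPA12B from 6.30 to 28.7 CPM and HSPB8 from 4.91 to 30.4 CPM. HSPA12A was highest in Schwann-like cells, at 42.3, 51.6, 32.4, 194 and 47.0 CPM from few cells. CRYAB, HSP90AB1, HSF1, HSPA1L, HSPA12A, HSPA12B, HSPA13, HSPB11, DNAJA4, DNAJB2, DNAJB5 and DNAJB13 overlap other genes in the RefSeq table, CRYAB with HSPB2 and HSPA12A with ENO4 among them, and whether counting used the strand is not given, so their UMIs may include reads of those neighbours.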

How the data were processed

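Cells of 5 pig skin libraries were profiled by 10x 3′ single-cell RNA sequencing, per the labels' protocols. The deposited files hold UMI counts per gene and barcode, not normalized. The submitters' processing notes name Cell Ranger and Seurat 3.1.1, and the matrix headers, per the file headers, name software version 3.1.0. The aligner's settings, the genome build and the use of strand are not given in the sources used here. Symbols came from the deposited gene tables and, for 670 identifiers, from the RefSeq table of Sscrofa11.1, giving 15340 symbols for 20286 genes. The same table was used for neighbouring and overlapping genes; no coordinates or sequences are printed.

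Cells with at least 500 genes and at most 25% mitochondrial UMIs were kept. Scrublet's automatic threshold marked 0 to 85 cells per library and was not used; instead the highest scores were removed at 0.8% per 1000 cells. Cells of all libraries were clustered together in Scanpy 1.11.5 (2000 variable genes without members, immediate early and mitochondrial genes, 30 components, 20 neighbours, Leiden resolution 1). A cluster was named where its marker score was at least 0.8, led by 0.5, with 3 or more markers and 50% of them raised, and the top 10 genes did not go against the name. The reference for raised markers was changed to the median of the other clusters after a first pass left 2 clusters with fibroblast markers unnamed. The unnamed clusters that remained, 376, 40 and 24 cells, entered only the sums over all cells.

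UMIs were summed by class and library and divided by the total. Intervals are exact Poisson or conditional binomial, at 95%. A count of 0 was set to 3 for a ratio. The deposited matrices hold 18485301 to 79671374 UMIs per library, and the precision of each value is its counting interval. Every member was described, those at 50 CPM by library and those called in the counted comparisons by both values. Other genes were described by the lists' counts with at most the 3 largest ratios. The members, lists and class markers were chosen with earlier results of these data known. Scripts were checked on simulated counts. The alternatives covered filters on cells and genes, doublets, clustering, scaling and cluster weights. Points of a class with fewer than 20 cells in a library were left out of the class plots. The glandular epithelial-like class was not drawn in them at all. It had 22, 24 and 38 cells in the untreated day 90, inhibitor day 90 and unwounded libraries.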

Additional observations from a re-analysis of the deposited data

How the results depend on the processing

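No paired analysis was possible because each group has 1 library, and no library could be left out. Over the 13 planned and 2 added alternatives, 158 of 186 recomputed counts stayed within 1.5 times the reported one and 28 did not. Day 7 inhibitor counts became 7 in fibroblast-like cells with no filter on low genes, 4 and 6 in endothelial-like cells at 10 CPM and with no filter, 3 and 3 in pericyte-like cells, 2 and 3 in keratinocyte-like cells, and 2 and 5 in T or NK-like cells, where the stricter cell filter also gave 2. Day 90 inhibitor counts became 3 and 6 in fibroblast-like cells at 10 CPM and with no filter, 2 with median-of-ratios scaling and 0 with equal cluster weights, 1 and 1 in endothelial-like cells, and 2 and 2 in pericyte-like cells. Against unwounded skin, day 7 counts became 14 with no filter and 3 with equal cluster weights in fibroblast-like cells, 13 with no filter in endothelial-like cells, and 11 and 13 at 10 CPM and with no filter in pericyte-like cells. Day 90 counts became 8 and 13 in fibroblast-like cells, 2 there with equal cluster weights, and 5 and 6 in endothelial-like cells. A looser gene filter adds genes with few UMIs, and equal weights use only clusters present in both libraries. HSPB6 on day 7 against unwounded skin in fibroblast-like cells reversed to a log2 ratio of 0.19 with equal cluster weights.

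DNAJB1 on day 7 with the inhibitor passed 1.5-fold under every alternative run, with log2 ratios of 1.17 to 1.60 in fibroblast-like, 1.31 to 1.74 in endothelial-like and 1.26 to 1.43 in pericyte-like cells. HSPE1 on day 7 against unwounded skin did so too, at 1.55 to 1.84, 0.82 to 1.07 and 0.68 to 0.88. Depth limits members under 50 CPM and classes with few cells, and no alternative replaces a second library.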
